A study of Mus musculus with 15 samples.

Results

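The data described here are 6 RNA-seq libraries of mouse embryoid bodies (EBs), taken from a series of 15 libraries. EBs are cell aggregates that differentiate in suspension. These were grown for 6 days from NSD1-dTAG cells, a knock-in line made from E14 mouse embryonic stem cells (mESCs), in a serum medium that lacks 2i/LIF, the inhibitors and cytokine that hold mESCs undifferentiated. In the line, NSD1 carries a degron tag. dTAG-13 is a small molecule that links such a tag to cereblon, the substrate receptor of a ubiquitin ligase, which leads to degradation of the tagged protein. Libraries were chosen by their labels: 3 were from nontreated EBs and 3 from EBs given 500 nM dTAG-13 for 6 days, numbered 1 to 3 in each group. All 6 carry the tag, all come from 1 line, and NSD1 protein was not measured in the files used here. Wild-type EBs with dTAG-13 were not analysed here, so in EBs the effect of losing NSD1 and other effects of dTAG-13 cannot be told apart. Levels from 3 libraries of nontreated NSD1-dTAG mESCs, and from wild-type E14 mESCs without dTAG-13 (3) or exposed to 500 nM of it during 72 h (3), are used where stated. The labels call the libraries of a group biological replicates. The EB p-values come from a fit by replicate number, so they measure the spread of the differences between same-numbered libraries. In the wild-type comparison they measure the spread between libraries.

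NSD1 is a methyltransferase that places methyl groups on lysine 36 of histone H3 (H3K36), and its human gene is mutated in Sotos syndrome, an overgrowth disorder. H3K36 dimethylation lies over gene bodies and between genes. It is known to counter H3K27 methylation by Polycomb and to be read by the DNA methyltransferase DNMT3A. Differentiating EBs pass through states that resemble the epiblast and the primitive streak, the site of the embryo where T-box factors, Wnt and Nodal signals specify mesoderm and endoderm.

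Gene counts summed to 26825756, 28085822 and 26906742 in nontreated libraries 1 to 3 and to 25574544, 26792657 and 25896839 with dTAG-13. Principal component 1 (54.2% of the variance among the 6 libraries) parted the treatments. The second held 24.1% and set library 3 of both groups (-27.7 and -30.7) apart from the other 4 (5.37 to 21.9). Library 3 of each group also had the lowest share of mitochondrially encoded counts, 0.199% and 0.237% against 0.425% to 1.11%, and the highest share of ribosomal protein counts, 6.79% and 7.07%. Comparisons were made within pairs of libraries with the same number, and values without each pair are given where a result rests on it. Of the pluripotency markers that define the starting cells, all 12 on the core list had a mean of at least 1 CPM, the usual depth-scaled count. So did 14 of 16 markers of the primitive streak, 19 of 20 of extraembryonic endoderm and 9 of 18 of neuroectoderm. Levels below are CPM per library, that is, counts divided by the library's total and scaled by TMM (trimmed mean of M values), and order the libraries rather than the genes, since they are not divided by gene length.

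Of 15236 genes tested, 1834 changed with dTAG-13 at an adjusted p below 0.05, which is 12% of those tested. More rose (1046, 6.87%) than fell (788, 5.17%), while falls were larger, with a median log2 change of -0.88 against 0.72 for rises. Counts of called list members below are to be read beside these shares. The change was at least 2-fold for 325 that rose and 347 that fell (2.13% and 2.28%), and below 1.5-fold for 655. All 1834 moved the same way in the 3 pairs, and for 1640 the 3 libraries of a group did not overlap those of the other, against 27.2% of all tested genes. Since a fit by pairs made the calls, the shared direction largely follows from being called and is no separate support. The test was edgeR's quasi-likelihood F test with the replicate number as a block and Benjamini-Hochberg adjustment over all tested genes. Over all tested genes the median log2 change was -0.0072.

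How many genes passed depended on the pairs in the fit. Without pair 1, 2 or 3 the calls numbered 530, 337 and 4535, and 1832 of the 1834 were also called without pair 3. Without pair 1, 334 genes were called higher and 196 lower of 15287 tested. Without pair 2 these were 178 and 159 of 15296, and without pair 3, 2321 and 2214 of 15463 (15% and 14.3%). List counts in these fits are to be read beside these totals. Most of the 1834 calls could not hold without pair 2, where 337 genes passed. Fits with a pair left out have 4 libraries. Without the replicate block 1030 were called (3.98% of tested genes higher and 2.78% lower), 1013 of them among the 1834. Of the 344 called genes that a fixed rule named, 184 lost the call without pair 1, 221 without pair 2 and none without pair 3. A call is said below to have held with each pair left out where it passed in all 3 of those fits. The fit without the block is a separate check.

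**Figure D1:**
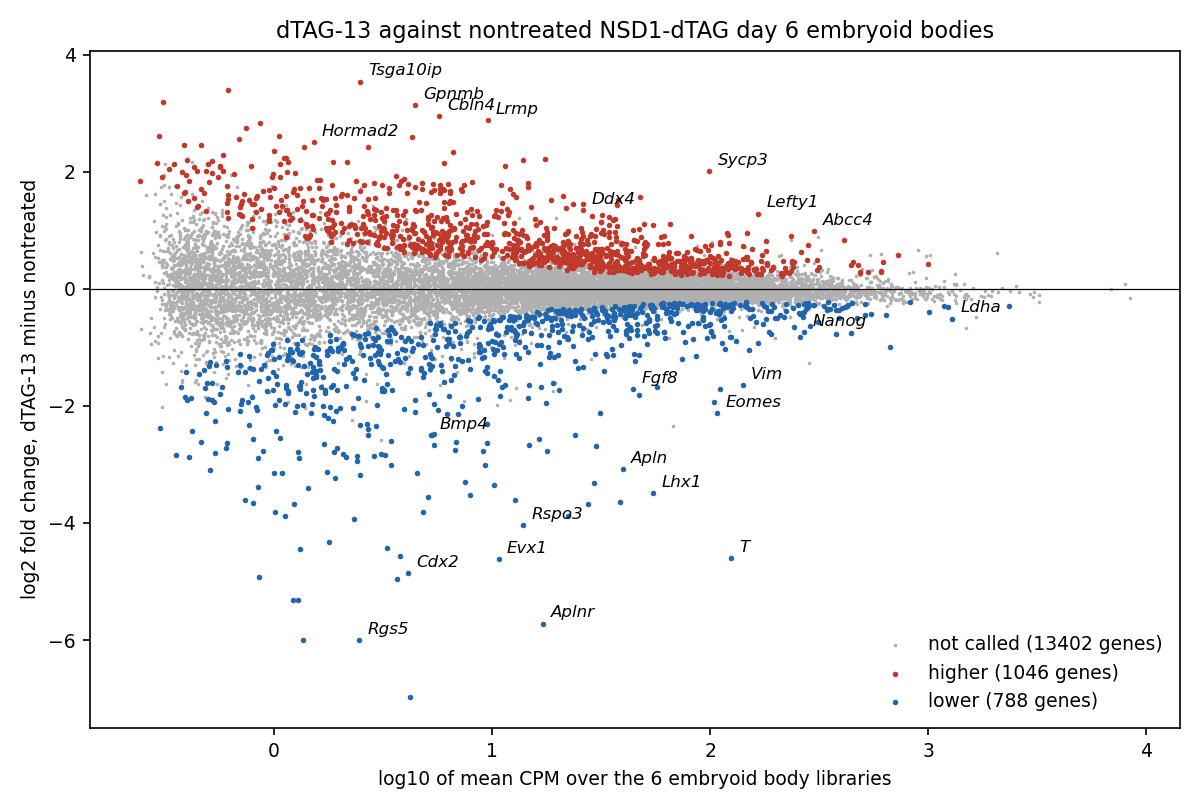
Log2 fold change with dTAG-13 in day 6 EBs (vertical axis) against the log10 of the mean CPM over the 6 libraries (horizontal axis), 1 point per tested gene, with the 1046 genes that rose in red, the 788 that fell in blue and selected genes labelled. The largest falls lie further from 0 than the largest rises.

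The transcript of the targeted gene did not pass the test with all 3 pairs. Nsd1 (ENSMUSG00000021488.8, chromosome 13, 55209782 to 55318325, plus strand, GRCm38) was at 245, 227 and 202 CPM in nontreated libraries 1 to 3 and at 299, 284 and 219.9 CPM with dTAG-13 (log2 0.25, SE 0.07, adjusted p = 0.0656). The groups overlapped, since treated library 3 lay below nontreated libraries 1 and 2, although the level rose within each pair. Without pair 3 Nsd1 was called higher (log2 0.32, adjusted p = 0.00035), as were 15% of all genes in that fit. It did not pass without pair 1 or 2 (adjusted p = 0.232 and 0.394). Because the degrader acts on protein, this RNA does not check that NSD1 was lost. Of 21 tested H3K36 methyltransferases and readers none rose and 2 fell, Mtf2 (log2 -0.33) and Phf19 (log2 -0.64), which are PHF1-family partners of Polycomb repressive complex 2. Neither was called with pair 2 left out or without the block. Of the list 9.52% was called, against 12% of all tested genes, and its median log2 change was 0.04. Nsd2, Nsd3 and Setd2, other H3K36 methyltransferases, had log2 values of -0.05, 0.12 and 0.04 and did not pass (adjusted p = 0.567, 0.339 and 0.639).

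Among 16 tested DNA methylation enzymes and cofactors 2 rose and 3 fell. Tet2, an enzyme that oxidises methylcytosine, fell by 1.00 on the log2 scale, from 15.8, 18.1 and 10.9 CPM to 9.81, 7.76 and 5.06 CPM (SE 0.14, adjusted p = 0.0126). Its paralogue Tet3 rose (log2 0.44), as did the methyl-CpG binder Mbd1 (log2 0.50). Dnmt3l, a cofactor of the de novo methyltransferases, and Zfp57, which guards methylation at imprinted loci, fell (log2 -0.64 and -0.55). None of the 5 calls held with each pair left out in turn. Of 31 Polycomb and Trithorax subunits 3 rose and 2 fell, with log2 changes from -0.45 (Rbbp7) to 0.49 (Cbx6), and none of these calls held with pair 1 left out. That is 16.1% of the list called in either direction, against 12% of all tested genes.

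Of 12 tested genes of the degrader machinery Cul4a, a scaffold of the cereblon ligase, rose (log2 0.24) and Ikzf1 fell. Ikzf1 encodes Ikaros, a lymphoid transcription factor that cereblon recruits in the presence of thalidomide analogues. It was at 6.33, 4.49 and 2.84 CPM in nontreated EBs and 0.853, 1.14 and 0.554 CPM with dTAG-13, lower in every treated library (log2 -2.39, SE 0.23, adjusted p = 0.00512). Its call held with each pair left out, and that of Cul4a did not. Of the list 16.7% was called in either direction, against 12% of all tested genes.

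**Figure D2:**
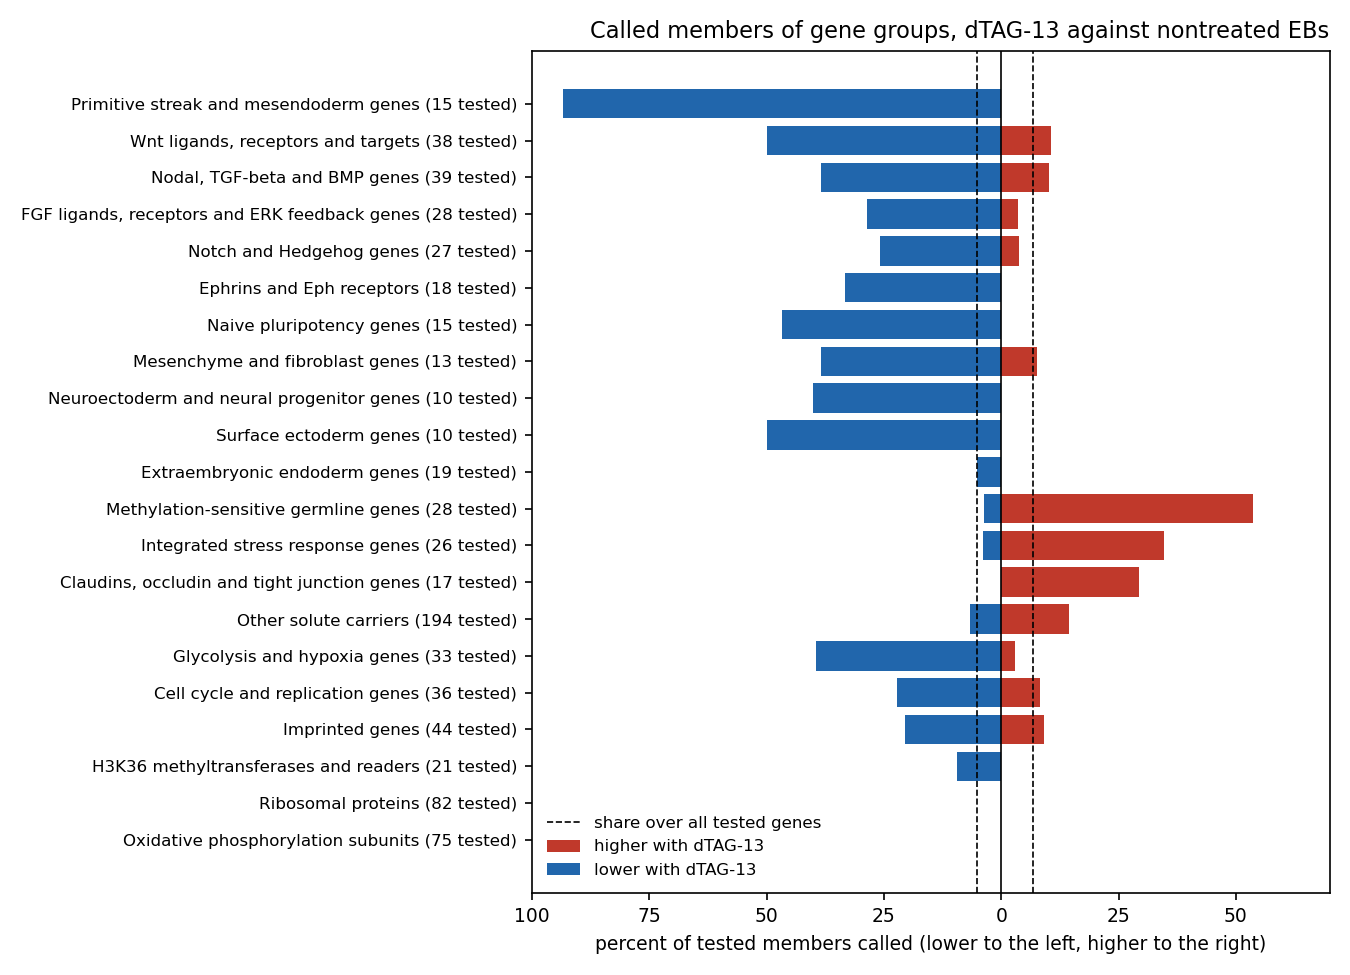
Share of the tested members of 21 gene lists called with dTAG-13, as a percent, with those that fell to the left of 0 and those that rose to the right, and dashed lines at the shares over all tested genes (5.17% and 6.87%). The primitive streak bar, 14 of 15 members, reaches furthest left, and the germline bar, 15 of 28 members, furthest right.

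The primitive streak genes fell almost as a whole. Of 15 tested, 14 fell and none rose, with a median log2 change of -3.32 against -0.0072 over all genes. Their summed level was 538 to 1311 CPM in the nontreated libraries and 148 to 281 CPM with dTAG-13. In a bulk sample, fewer cells of a type and less RNA per cell cannot be told apart. Without pairs 1, 2 and 3 the numbers called lower were 9, 10 and 15, without the block 12, and 9 of the 14 were called with each pair left out.

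T (Brachyury, ENSMUSG00000062327.10, chromosome 17, 8434423 to 8442496, plus strand), the T-box factor of early mesoderm, was at 223, 351 and 135 CPM in nontreated EBs. With dTAG-13 it was at 10.5, 31.4 and 0.259 CPM. All treated libraries lay below all nontreated ones, but they spread widely, and treated library 3 was close to 0. The change was -4.60 on the log2 scale (SE 0.66, adjusted p = 0.0132). It did not pass without the block (adjusted p = 0.0526) or without pair 1 (largest adjusted p = 0.0518). Eomes (ENSMUSG00000032446.14, chromosome 9, 118478212 to 118486132, plus strand), a T-box factor of mesendoderm, was at 158, 242 and 121 CPM in nontreated EBs. It was at 33.1, 65.7 and 25.2 CPM with dTAG-13. Its 3 pairs moved by nearly the same factor, and its error was the smallest of the streak genes (log2 -2.12, SE 0.09, adjusted p = 0.00118). Exons of Eomes overlap Gm33460 on the opposite strand, and the counted strand is not known.

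Homeobox genes of the streak and organizer fell too. Mixl1, which marks mesendoderm, went from 45.1, 91.4 and 23 CPM to 5.08, 10.9 and 1.29 CPM (log2 -3.32, SE 0.20, adjusted p = 0.00145). Gsc (goosecoid), an organizer gene, went from 14.8, 22.5 and 6.41 CPM to 0.995, 2.53 and 0.480 CPM (log2 -3.52, SE 0.19, adjusted p = 0.00141). For both genes the highest treated library lay below the lowest nontreated library. Lhx1, a LIM homeobox gene of the anterior streak, was at 103, 179 and 24.7 CPM in nontreated EBs and at 4.41, 9.08 and 8.64 CPM with dTAG-13. Here the pairs disagreed in size: library 3 was the lowest of the nontreated and not of the treated libraries, and the call was lost without pair 1 or 2 (largest adjusted p = 0.0690).

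Posterior genes of the streak fell as well. Evx1 (ENSMUSG00000005503.8, chromosome 6, 52313498 to 52318378, plus strand), a homeobox gene of the proximal streak, was at 16.5, 33.4 and 11.8 CPM in nontreated EBs and at 0.853, 1.56 and 0.185 CPM with dTAG-13 (log2 -4.62, SE 0.26, adjusted p = 0.00141). Evx1os, the transcript on its opposite strand, had a log2 change of -4.57. The exons overlap, so the reads of these neighbours cannot be told apart. Cdx2, a caudal homeobox gene of the tail bud and trophoblast, went from 8.15, 11 and 4.72 CPM to 0.142, 0.277 and 0.369 CPM (log2 -4.86, SE 0.36, adjusted p = 0.00276). Nontreated NSD1-dTAG mESCs had 4.57 ± 1.16 CPM of Cdx2 (SD, n = 3), a mean above each treated EB library. Cdx1, its paralogue, was lower (log2 -2.72, adjusted p = 0.0111) at levels near 1 CPM, and its call was lost without pair 1 or 2. Nkx1-2, a homeobox gene of the caudal epiblast, fell by 2.26 on the log2 scale and passed neither without the block (adjusted p = 0.0769) nor without pair 1 or 2.

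The basic helix-loop-helix gene Mesp1, which marks nascent cardiac and cranial mesoderm, went from 4.55, 11.9 and 2.41 CPM to 0.320, 0.554 and 0 CPM (log2 -4.43, SE 0.39, adjusted p = 0.00412). Its neighbour Mesp2, a somite segmentation gene, fell by 2.09 on the log2 scale (adjusted p = 0.0172, lost without pair 1 or 2, where it was at most 0.0763). The ligand Fgf8 went from 68.9, 87 and 46 CPM to 20.8, 33.2 and 10.7 CPM (log2 -1.72, SE 0.14, adjusted p = 0.00343). Treated library 3 was the lowest for Mesp1 and Fgf8, whereas the 3 treated libraries were alike for Mesp2.

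**Figure D3:**
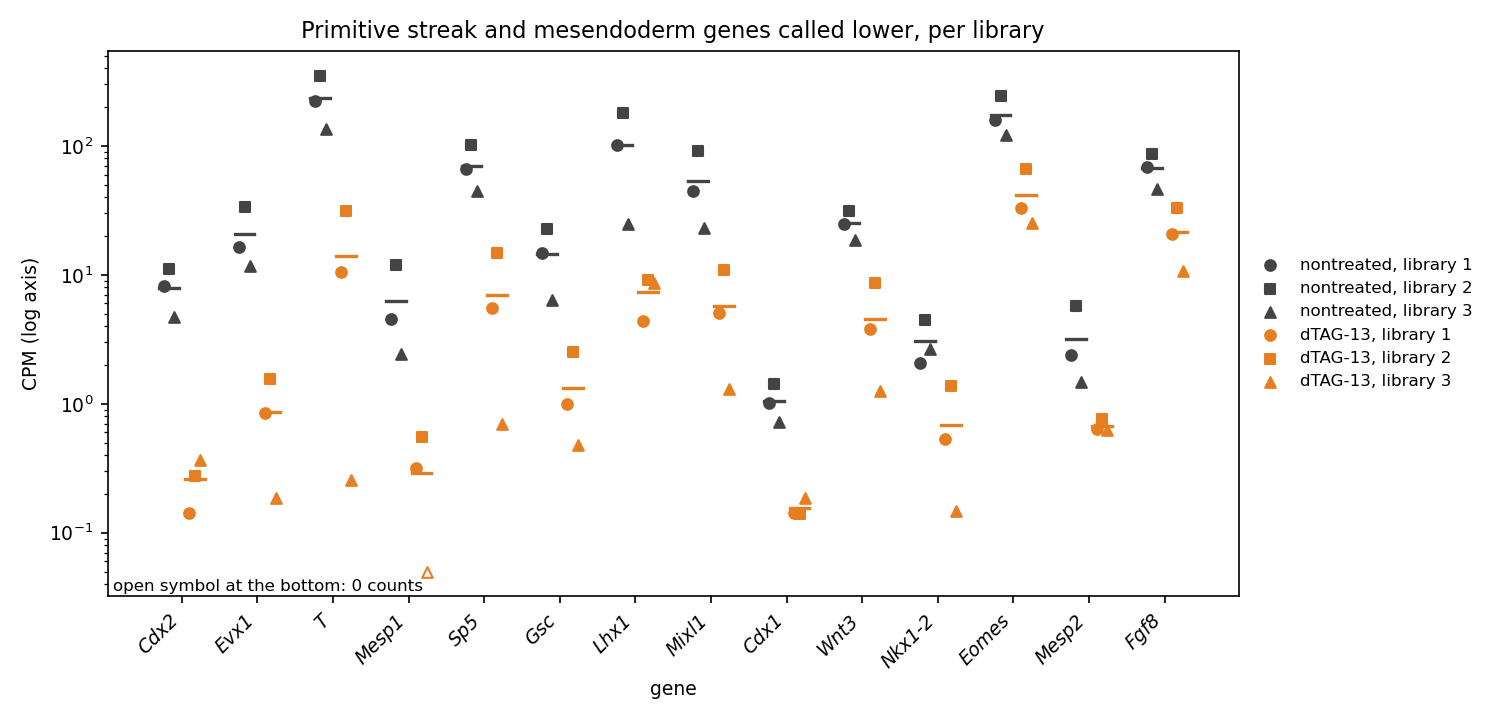
CPM on a log axis of the 14 primitive streak genes that fell, 1 symbol per library (circle, square and triangle for libraries 1, 2 and 3, grey for nontreated and orange for dTAG-13), with a bar at each group's mean and an open symbol for 0 counts. In each of the 14 genes the nontreated libraries lie above the treated ones. Groups did not overlap for 1640 of all 1834 called genes.

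Wnt genes fell more often than they rose. Wnt proteins bind Frizzled receptors with LRP5 or LRP6 coreceptors and stabilise beta-catenin, R-spondins sustain the receptors, and target genes include several secreted inhibitors. Of 38 tested genes 19 fell and 4 rose, with a median log2 change of -0.92. The list holds Cdx1, Cdx2, Sp5 and Wnt3, which also stand in the streak list. Leaving out pairs 1, 2 and 3 gave 14, 10 and 26 called lower, the fit without the block 15, and 10 of the 19 were called with each pair left out.

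Among ligands Wnt3, which is required for streak formation, went from 25, 31.5 and 18.8 CPM to 3.80, 8.70 and 1.26 CPM (log2 -2.66, SE 0.34, adjusted p = 0.0101). Treated library 2 was the highest of its group, and all 3 lay below the nontreated range. Wnt6 (log2 -3.41), Wnt2b (-2.33), Wnt5a (-1.84), Wnt11 (-1.36) and Wnt5b (-1.12) also fell. Of these, the call of Wnt6 held with each pair left out and those of the other 4 did not. Rspo3, an R-spondin, was at 24.9, 42.9 and 10.6 CPM in nontreated EBs and at 1.17, 3.01 and 0.665 CPM with dTAG-13. The 3 pairs moved by similar factors (log2 -4.04, SE 0.15, adjusted p = 0.00118, at most 0.00594 with a pair left out). Lgr5, an R-spondin receptor, went from 10.6, 13.3 and 3.02 CPM to 0.391, 1.18 and 0.332 CPM (log2 -3.81, SE 0.29, adjusted p = 0.00314).

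Among receptors the directions were mixed. Fzd10 (log2 -1.23) and Fzd1 (-0.77) fell, while Fzd4 (0.99), Fzd7 (0.48) and the coreceptor Lrp5 (0.65) rose. Lrp5 was at 146, 142 and 135 CPM in nontreated EBs and 213, 216 and 234 CPM with dTAG-13, and the call held with each pair left out (adjusted p = 0.00564). Those of Fzd1, Fzd4 and Fzd7 did not.

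Targets of the pathway fell as well. Axin2, a beta-catenin target that limits the signal, was at 45.2, 54.3 and 42 CPM in nontreated EBs. It was at 17.3, 23.4 and 13.3 CPM with dTAG-13, in each library under the nontreated range (log2 -1.41, SE 0.11, adjusted p = 0.00276). Sp5, a zinc finger target, went from 65.7, 101 and 44.5 CPM to 5.58, 14.8 and 0.702 CPM (log2 -3.65, adjusted p = 0.00957). Nkd1, an inhibitor inside the cell, and Notum, a secreted enzyme that inactivates Wnt, fell (log2 -1.08 and -1.25), and neither call held with each pair left out in turn. Lef1 and Tcf7, the DNA-binding partners of beta-catenin, had log2 values of -0.61 and -0.14 (adjusted p = 0.0632 and 0.219). The secreted antagonists Frzb (log2 -3.61) and Dkk1 (-2.61) fell, the first from 20.1, 41.9 and 8.75 CPM to 1.49, 3.15 and 0.923 CPM, and Sfrp2 rose (log2 0.84). Dkk1 lost its call without pair 1 or 2, and Sfrp2 without pair 1 or 2.

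Genes of Nodal, TGF-beta and BMP signalling moved in both directions. Of 39 tested, 15 fell and 4 rose, with a median log2 change of -0.29. Leaving out pairs 1, 2 and 3 gave 6, 6 and 22 called lower, and the fit without the block 13. With each pair left out 5 of the 15 falls were called. Nodal, the ligand that patterns the epiblast, fell by 0.41 on the log2 scale, from 77.6, 82 and 79.1 CPM to 58, 68.1 and 53.6 CPM (SE 0.08, adjusted p = 0.0247, lost without pair 1 or 2, where it was at most 0.0994). Its coreceptors Tdgf1 (Cripto) and Cfc1 (Cryptic) fell by 0.82 and 2.68. The call of Tdgf1 was lost without pair 1, and that of Cfc1 without pair 1 or 2. Lefty1, a secreted Nodal inhibitor, moved the other way: it was at 105, 93.7 and 91.8 CPM in nontreated EBs and 265, 241 and 203 CPM with dTAG-13 (log2 1.29, SE 0.07, adjusted p = 0.00141). Each treated library was above the nontreated range, and the call held with each pair left out. Inhba, a subunit of activin A, rose from 0.560, 0.266 and 0.540 CPM to 2.03, 1.52 and 1.51 CPM (log2 1.91, adjusted p = 0.0132), a call lost without pair 1 or 2.

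The BMP ligands Bmp5 (log2 -3.81), Bmp4 (-2.49) and Bmp7 (-1.16) fell, and the call of Bmp7 was lost without pair 1 or 2. Bmp4, which acts in mesoderm and germ cell formation, went from 10.2, 11.2 and 5.73 CPM to 1.42, 1.59 and 1.63 CPM (SE 0.23, adjusted p = 0.00475). Antagonists of these ligands fell too. Chrd (chordin) went from 15, 15.1 and 5.08 CPM to 2.74, 3.95 and 1.70 CPM (log2 -2.01, adjusted p = 0.00474). Fst (follistatin), which binds activin, went from 137, 206 and 144 CPM to 39.4, 78.1 and 22 CPM (log2 -1.94, adjusted p = 0.00918). Both calls held with each pair left out, and exons of Chrd overlap Thpo. Nog, Grem1, Bmper and Cer1 had log2 changes of -2.86, -1.60, -2.48 and -3.67, and none of these 4 calls held with each pair left out in turn. The targets Msx1 (log2 -2.64, adjusted p = 0.00118), Id3 (log2 -0.74) and Smad6 (log2 -1.24) fell, and of these Msx1 was called with each pair left out.

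Of 28 FGF ligands, receptors and feedback genes 8 fell and 1, Spred3, rose (log2 0.93). The falls were Fgf8, Fgf17 (log2 -1.29), Fgf5 (-0.57) and the feedback genes Ier3, Il17rd, Etv5, Dusp6 and Spry2 (-0.77 to -0.37). Leaving out pairs 1, 2 and 3 gave 1, 1 and 14 called lower, and the fit without the block 5. Of 27 Notch and Hedgehog genes 7 fell and 1, Notch3, rose (log2 0.57). The falls included Jag1, a Notch ligand (log2 -1.35), Dll3 (-1.33), the targets Nrarp (-1.50), Hey1 (-0.98) and Hes1 (-0.46), and Gas1, a Hedgehog coreceptor (-1.86). The fits without pairs 1, 2 and 3 called 3, 3 and 10 lower, and that without the block 5.

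Outside the lineage lists, the largest falls included a peptide receptor, a G protein regulator, a fatty acid receptor and a protocadherin. Aplnr (ENSMUSG00000044338.9, chromosome 2, 85136225 to 85139923, plus strand), the G protein-coupled receptor for apelin, was at 26.4, 63.3 and 10.8 CPM in nontreated EBs. With dTAG-13 it was at 0.568, 1.35 and 0.0369 CPM, below the nontreated range in all 3 libraries (log2 -5.72, SE 0.25, adjusted p = 0.00118). Its ligand Apln went from 66, 94.8 and 49.4 CPM to 8.21, 17.6 and 2.73 CPM (log2 -3.08, SE 0.30, adjusted p = 0.00512), and was named after its values were seen. Rgs5, a regulator of G protein signalling known from pericytes, went from 5.11, 8.62 and 0.792 CPM to 0.107, 0.104 and 0 CPM (log2 -6.01, SE 0.33, adjusted p = 0.00141). Of these genes Apln was still read at several CPM in each treated library, whereas Rgs5 was near 0. Cd36, a fatty acid and scavenger receptor, and Optc (opticin), a small matrix proteoglycan, had log2 changes of -5.31 and -5.31, with treated libraries at 0 to 0.173 CPM.

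Pcdh7, a protocadherin, was at 39.3, 73 and 14.4 CPM in nontreated EBs and at 1.78, 3.95 and 2.07 CPM with dTAG-13 (log2 -3.88, SE 0.30, adjusted p = 0.00308). Nontreated library 3 was the lowest of its group and still above the highest treated library. Samd3 (log2 -4.95), Klhl6 (-4.32), the choline transporter-like gene Slc44a5 (-3.93) and the forebrain and urogenital homeobox gene Emx2 (-3.88) completed the lowest group with a mean of at least 1 CPM. Sprr2a3, a small proline-rich gene, had 234 counts over the nontreated libraries and 3 over the treated ones, a ratio of 74.6 with a 95% interval of 25.2 to 364 that covers counting error only. Its near-identical copies make this count uncertain. Of the 17 lowest genes by rule, 16 were called with each pair left out, and T was the exception. They were chosen as called genes with the largest changes in the same libraries. Keeping the call thus largely follows from the choice.

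The largest rises were from low levels. Tsga10ip (ENSMUSG00000039330.5, chromosome 19, 5390049 to 5402526, minus strand), which encodes a partner of a testis protein, was at 0.245, 0.532 and 0.396 CPM in nontreated EBs. It was at 3.98, 4.30 and 5.47 CPM with dTAG-13 (log2 3.54, SE 0.26, adjusted p = 0.00276). Nontreated NSD1-dTAG mESCs had 2.59 ± 0.119 CPM (SD, n = 3), between the 2 EB groups. Gpnmb, a glycoprotein of melanosomes and lysosomes, went from 1.19, 0.765 and 0.756 CPM to 8.85, 6.76 and 8.16 CPM (log2 3.14, SE 0.18, adjusted p = 0.00141). Lrmp (ENSMUSG00000030263.13, chromosome 6, 145115653 to 145174934, plus strand), a membrane protein of the endoplasmic reticulum known from lymphocytes, went from 1.92, 2.30 and 2.66 CPM to 17.7, 18.4 and 14.4 CPM (log2 2.87, SE 0.18, adjusted p = 0.00187). For all 3 genes the groups were far apart. For Lrmp, library 3 was the highest of the nontreated and the lowest of the treated libraries. Its log2 change was 2.72, 2.82 and 3.10 without pairs 1, 2 and 3. Nontreated mESCs of the line had 20.2 ± 1.57 CPM of Lrmp (SD, n = 3), above the range of nontreated EBs.

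Cbln4, a secreted synapse organizer, had a log2 change of 2.95, and Aqp6, an aquaporin, of 2.61. Cbln4 was at 1.29, 0.665 and 2.09 CPM in nontreated EBs and 11.1, 10.4 and 8.61 CPM with dTAG-13 (SE 0.35, adjusted p = 0.00800), and had no count in the nontreated mESCs. Ccdc73 rose from 2.24, 2.43 and 1.87 CPM to 12.1, 11.4 and 9.64 CPM (log2 2.34, SE 0.14, adjusted p = 0.00141). Its exons overlap Eif3m on the opposite strand. Zfp783 rose by 2.60 on the log2 scale and shares exonic sequence with Zfp956 on the same strand, so their reads cannot be told apart. Ptgir, the prostacyclin receptor, Slc45a1, a sugar transporter, Slc25a45, a mitochondrial carrier, and Pla2r1, a phospholipase A2 receptor, rose by 2.42, 2.42, 2.23 and 2.23. Of the 12 highest genes by rule, 11 were called with each pair left out, and Pla2r1, lost without pair 2, was the exception (largest adjusted p = 0.0556). As with the lowest genes, the choice was made on the same libraries, so these kept calls are no independent support.

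Germline genes moved upward. The list holds genes known to be silenced by promoter DNA methylation in somatic cells, which encode parts of the synaptonemal complex, RNA helicases and piRNA factors of germ cells. Of 28 tested, 15 rose and 1 fell, with a median log2 change of 0.88. Their summed level was 254 to 319 CPM in nontreated EBs and 438 to 478 CPM with dTAG-13. The fits without pairs 1, 2 and 3 called 10, 8 and 17 higher, beside 334, 178 and 2321 of all tested genes. In the fit without the block the list had 15 that rose and none that fell. DNA methylation was not measured in these libraries.

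Several of these promoters hold CACGTG, the E-box hexamer that is bound by MYC, MAX and MGA partners. Windows from 250 bases before to 50 after the start site were taken from RefSeq (GRCm38.p6) for 13 of the 15 genes that rose. The motif, a palindrome and thus the same on both strands, was in 8 of these 13 windows and in 10.2% of all 10629 windows of that length. It was 1 of 9 motifs searched in 4 lists and is shown after looking, with no test. The 3 windows below are shown because they belong to genes that rose and hold the motif, with the hexamer in capitals: Sycp3 (chr10:88459337-88459636, plus strand), Ddx4 (chr13:112652261-112652560, minus strand) and Hormad1 (chr3:95559427-95559726, plus strand), each written 5′ to 3′ on the strand of its gene.
Sycp3: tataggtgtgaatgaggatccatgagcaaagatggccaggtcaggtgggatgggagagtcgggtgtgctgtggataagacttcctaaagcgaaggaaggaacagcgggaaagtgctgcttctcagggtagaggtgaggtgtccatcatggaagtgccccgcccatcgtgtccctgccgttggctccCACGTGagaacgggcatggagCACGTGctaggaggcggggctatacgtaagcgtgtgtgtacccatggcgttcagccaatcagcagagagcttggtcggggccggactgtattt
Ddx4: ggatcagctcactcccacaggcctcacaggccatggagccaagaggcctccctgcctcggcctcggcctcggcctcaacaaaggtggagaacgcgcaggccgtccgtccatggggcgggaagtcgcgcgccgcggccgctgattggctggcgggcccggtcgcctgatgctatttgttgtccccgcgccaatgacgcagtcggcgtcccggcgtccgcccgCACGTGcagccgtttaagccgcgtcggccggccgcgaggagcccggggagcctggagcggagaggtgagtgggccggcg
Hormad1: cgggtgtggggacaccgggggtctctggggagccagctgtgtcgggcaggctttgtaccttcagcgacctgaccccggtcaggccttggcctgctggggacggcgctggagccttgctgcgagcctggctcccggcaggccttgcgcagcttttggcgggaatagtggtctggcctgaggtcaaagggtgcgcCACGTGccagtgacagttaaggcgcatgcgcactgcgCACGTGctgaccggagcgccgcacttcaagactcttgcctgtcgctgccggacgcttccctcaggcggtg
The hexamer begins 64 and 43 bases before the start site in Sycp3, 29 bases before it in Ddx4, and 57 and 20 bases before it in Hormad1. A match is a description of the letters and no evidence of binding.

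Both of the largest rises on the list were of meiotic chromosome axis genes. Sycp3 (ENSMUSG00000020059.9, chromosome 10, 88459569 to 88473236, plus strand), a lateral element of the synaptonemal complex, was at 41.8, 29.6 and 48.1 CPM in nontreated EBs. With dTAG-13 it was at 140.0, 149 and 186 CPM (log2 2.01, SE 0.12, adjusted p = 0.00141, at most 0.00594 with a pair left out). Library 3 was the highest of both groups, and the groups lay far apart. Exons of Sycp3 overlap Chpt1. Hormad2, an axis protein, went from 0.350, 0.499 and 0.504 CPM to 3.02, 2.60 and 2.14 CPM (log2 2.51, SE 0.27, adjusted p = 0.00682). Its paralogue Hormad1 went from 1.71, 1.90 and 2.23 CPM to 3.87, 3.78 and 4.62 CPM (log2 1.07, adjusted p = 0.0140, lost without pair 1 or 2, where it was at most 0.0792). Sycp1, of the central region, rose by 1.19 from levels under 1 CPM.

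Among germ cell RNA regulators Ddx4 (VASA), a helicase of the germ plasm, was at 17.7, 11 and 16.2 CPM in nontreated EBs and 33.8, 35 and 43.1 CPM with dTAG-13 (log2 1.34, SE 0.14, adjusted p = 0.00681). Dazl, an RNA-binding protein of germ cell commitment, went from 4.23, 3.66 and 3.24 CPM to 8.88, 8.25 and 8.64 CPM (log2 1.22, SE 0.14, adjusted p = 0.00767). Piwil2, a piRNA-binding protein, rose by 1.37 and Tdrd1, its Tudor-domain partner, by 0.99. In each of these the treated libraries lay above all nontreated ones, as groups did not overlap for 1640 of all 1834 called genes. Of transcriptional regulators Sohlh2 (log2 1.36) and the TFIID-related Taf7l (1.85) rose. Stk31, Tex11, Slc25a31, Zcwpw1 and Rhox13 rose by 0.76 to 1.34. Tex19.1 was the member that fell (log2 -0.70, adjusted p = 0.00776), from 61.6, 46.2 and 52.8 CPM to 40.6, 29.2 and 29.1 CPM. With each pair left out in turn 8 of the 15 rises were called.

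The transcription factors that specify primordial germ cells were not among the genes that rose. Prdm14 fell by 0.92 on the log2 scale (adjusted p = 0.0242) and Tfap2c by 0.79 (adjusted p = 0.0132), although their libraries overlapped between groups, and neither passed without the block. Prdm1 had a log2 value of -0.07 (adjusted p = 0.830), Nanos3 of -0.13 (0.721) and Dppa3 of -0.18 (0.473). Prdm1, Nanos3 and Dppa3 were picked for this check after other values were seen.

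**Figure D4:**
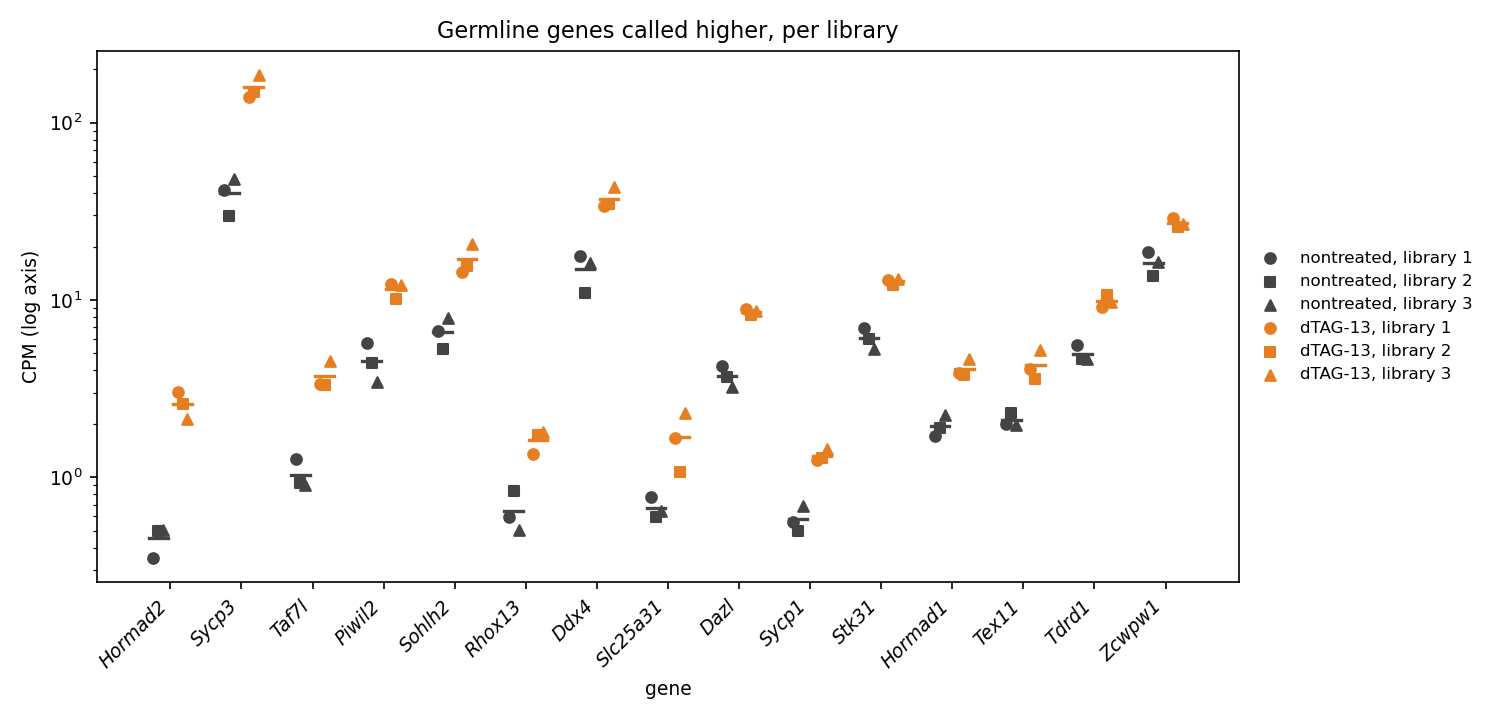
CPM on a log axis of the 15 germline genes that rose, 1 symbol per library (circle, square and triangle for libraries 1, 2 and 3, grey for nontreated and orange for dTAG-13), with a bar at each group's mean. In each of the 15 genes the treated libraries lie above the nontreated ones. Groups did not overlap for 1640 of all 1834 called genes.

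Genes of the integrated stress response that passed mostly rose, and those of glycolysis mostly fell. The integrated stress response slows translation and, through the factor ATF4, raises amino acid and redox genes. Of 26 tested members 9 were called higher and 1 lower. The list's median log2 change was 0.11, and, called or not, 19 members had a positive and 7 a negative value. Without pairs 1, 2 and 3 the numbers called higher were 4, 4 and 10, and without the block 6. The calls of Atf5, Trib3 and Ddit3 held with each pair left out.

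Ddit3 (CHOP), a stress transcription factor, was at 12.7, 7.88 and 10.6 CPM in nontreated EBs and at 25.2, 23.6 and 46.9 CPM with dTAG-13 (log2 1.58, SE 0.21, adjusted p = 0.0107). Treated library 3 was the highest, and its exons overlap Mars. Trib3, a pseudokinase that restrains ATF4, went from 20.2, 15.7 and 22.4 CPM to 31.5, 31.6 and 48.6 CPM (log2 0.93, SE 0.11, adjusted p = 0.00778). Slc7a11, the cystine transporter, went from 0.840, 0.632 and 1.15 CPM to 2.74, 2.25 and 2.47 CPM (log2 1.53, SE 0.23, adjusted p = 0.0147). For each of the 9 that rose, all treated libraries were above all nontreated ones. Among all 1834 called genes the groups did not overlap for 1640, so this is usual for a called gene. Gdf15, a stress-induced secreted factor, Nupr1, Aldh1l2, Atf5, Chac1, a glutathione-degrading enzyme, and Ppp1r15a, a phosphatase subunit that restores translation, rose by 0.52 to 1.53. Atf4 itself (log2 0.08, adjusted p = 0.395) and Asns, asparagine synthetase (-0.26, 0.170), did not pass. Shmt2, a mitochondrial serine enzyme, fell (log2 -0.35).

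The promoters of 8 of the 9 genes that rose were in RefSeq (GRCm38.p6), and 4 of these windows held TGATGNAA, a pattern of the C/EBP-ATF element, against 2.25% of all 10629. The pattern was searched on both strands, again among the 9 motifs, and is shown after looking. Trib3 (chr2:152344011-152344310, minus strand) and Slc7a11 (chr3:50443564-50443863, minus strand) are shown because they carry the pattern and differ in function, with the pattern in capitals on whichever strand it was found.
Trib3: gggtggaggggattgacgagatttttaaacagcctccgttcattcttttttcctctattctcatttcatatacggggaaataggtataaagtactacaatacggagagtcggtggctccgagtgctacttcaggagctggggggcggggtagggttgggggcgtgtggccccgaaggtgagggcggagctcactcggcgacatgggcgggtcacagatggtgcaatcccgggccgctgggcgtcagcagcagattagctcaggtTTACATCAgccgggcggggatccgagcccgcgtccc
Slc7a11: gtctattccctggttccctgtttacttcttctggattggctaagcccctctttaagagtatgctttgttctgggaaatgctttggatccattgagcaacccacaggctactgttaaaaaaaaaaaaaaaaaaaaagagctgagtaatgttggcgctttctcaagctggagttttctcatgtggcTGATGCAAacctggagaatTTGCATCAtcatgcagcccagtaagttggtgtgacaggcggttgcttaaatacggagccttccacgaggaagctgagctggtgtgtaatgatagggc
The pattern begins 66 and 47 bases before the start site in Slc7a11 and 15 bases after it in Trib3.

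Of 33 tested glycolysis and hypoxia genes 13 fell and 1 rose, with a median log2 change of -0.32. The falls ran from -0.73 to -0.30 and lay at most steps of the pathway: Hk1, Pfkl, Pfkp, Aldoa, Tpi1, Gapdh, Pgk1, Pgam1, Eno1 and Ldha. Ldha, lactate dehydrogenase A, was at 1334, 1449 and 1755 CPM in nontreated EBs and 964, 1187 and 1016 CPM with dTAG-13 (log2 -0.51, SE 0.10, adjusted p = 0.0304). Pgk1, phosphoglycerate kinase, went from 599, 528 and 661 CPM to 402, 436 and 464 CPM (log2 -0.45, SE 0.07, adjusted p = 0.0183). In both genes the groups did not overlap. Pfkp, a phosphofructokinase, went from 106, 99.4 and 73.8 CPM to 68.7, 65.1 and 36.9 CPM (log2 -0.73, SE 0.10, adjusted p = 0.0105). Eno2, the neuronal enolase, rose from 9.13, 6.72 and 5.29 CPM to 16.9, 17.5 and 15.3 CPM (log2 1.26, SE 0.15, adjusted p = 0.00793).

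The numbers of glycolysis and hypoxia genes called lower were 2, 2 and 20 without pairs 1, 2 and 3, without the block 4, and of the 13 only Pfkp was called with each pair left out. Pfkp did not pass without the block (adjusted p = 0.1385). The hypoxia targets Slc2a1 and Vegfa had log2 values of 0.25 and -0.08 and did not pass (adjusted p = 0.0904 and 0.743), while Bnip3 (log2 -0.59), P4ha2 (-0.43) and the oxygen sensor Egln1 (-0.32) fell. Of 75 oxidative phosphorylation subunits none passed, with a median of -0.06.

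**Figure D5:**
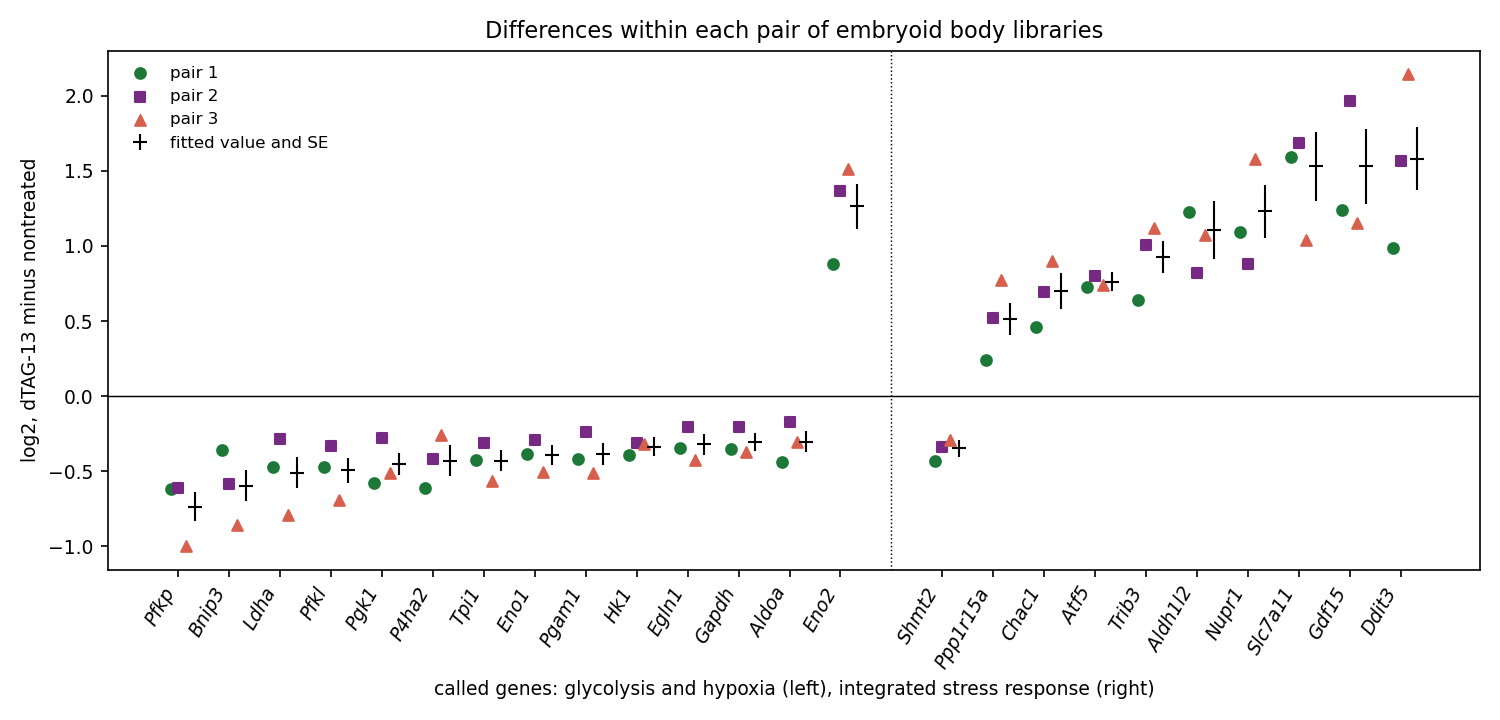
Log2 difference within each pair of libraries (dTAG-13 minus nontreated, symbols for pairs 1 to 3, computed from CPM plus 0.1) for called genes of glycolysis and hypoxia on the left and of the integrated stress response on the right, with the fitted value and its SE as a cross. The 13 glycolysis and hypoxia genes that fell lie below 0 in each pair, and the 9 stress genes that rose lie above 0 in each pair. All 1834 called genes moved the same way in the pairs.

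Naive pluripotency genes were lower with dTAG-13 where they passed the test. Of 15 naive pluripotency genes 7 fell and none rose, with a median log2 change of -0.39. Zfp42 (Rex1), a naive marker, was at 133, 129 and 95 CPM in nontreated EBs and 65.7, 51.7 and 43.7 CPM with dTAG-13 (log2 -1.15, SE 0.08, adjusted p = 0.00236), both far below the 593 ± 76.7 CPM of nontreated mESCs (SD, n = 3). Esrrb, an orphan nuclear receptor of the naive network, went from 168, 180.5 and 126 CPM to 107, 83.2 and 75 CPM (log2 -0.83, adjusted p = 0.00841). Tcl1, Klf4, Nr0b1, Prdm14 and Tfcp2l1 fell by 0.75 to 1.21 on the log2 scale. Without pairs 1, 2 and 3 the numbers called lower were 4, 2 and 12, and without the block 5.

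Of 12 core pluripotency genes 3 fell and 1 rose. Nanog went from 315, 359 and 338 CPM to 195, 226 and 183 CPM (log2 -0.74, SE 0.07, adjusted p = 0.00475), with no overlap and a call that held with each pair left out. Dppa5a fell (log2 -0.50) and Dppa4 rose (0.52). Pou5f1 (Oct4) had 566, 567 and 835 CPM in nontreated EBs and 568, 575 and 666 CPM with dTAG-13 (log2 -0.10, adjusted p = 0.510), and Sox2 a log2 value of 0.02 (adjusted p = 0.886). Of 12 formative epiblast genes Fgf5 alone was called, and fell by 0.57 (adjusted p = 0.04998). Its call was lost without pair 1, pair 2 or the block (adjusted p = 0.119, 0.0608 and 0.192). Of this list 8.33% was called, against 12% of all tested genes. Without pair 3 it had 5 called higher and 3 lower.

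Most called genes of later lineages fell. Among mesoderm genes 4 of 8 paraxial and 4 of 8 lateral and cardiac genes fell and none rose. Msgn1, a presomitic factor, went from 1.33, 3.26 and 0.396 CPM to 0.107, 0 and 0.0369 CPM (log2 -4.93, SE 0.69, adjusted p = 0.0120). Isl1, a LIM homeobox gene of cardiac progenitors, went from 2.10, 4.56 and 0.936 CPM to 0.142, 0.104 and 0.0739 CPM (log2 -4.45, SE 0.38, adjusted p = 0.00375). In both genes every treated library was below 1 CPM. Foxc1 (log2 -2.86), Hand1 (-2.60) and Snai1 (-1.64) fell as well. Of 14 endothelial and blood genes Flt1 (-2.12), Cdh5 (-1.80) and Lmo2 (-1.07) fell and Tek rose (1.05). Of 12 definitive and axial endoderm genes 3 fell, among them Foxa2 (log2 -2.49, adjusted p = 0.00944), the forkhead factor of endoderm and node. With each pair left out 1 of the 4 paraxial, 2 of the 4 lateral, 1 of the 3 definitive endoderm and 0 of the 3 endothelial falls were called.

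The ectodermal lists showed falls too. Of 10 neuroectoderm genes 4 fell and none rose: En1 (log2 -2.88), En2 (-1.66), Sox21 (-1.63) and Pax6 (-1.44), which pattern the brain. Of 8 neural crest genes 4 fell, Msx1, Twist1 (-1.88), Tfap2a (-1.79) and Sox9 (-1.73). Of 10 surface ectoderm genes 5 fell, among them Tfap2a, Dlx3 (-1.37) and Grhl3 (-0.91). Of 9 trophoblast genes 4 fell, and Cdx2, Hand1, Eomes and Tfap2c each stand in another list as well. Of 13 mesenchyme genes 5 fell, including Vim, vimentin (log2 -1.65), Zeb1 (-1.50) and Cdh2, N-cadherin (-1.68), and Thy1 rose (1.27). With each pair left out 2 of the 4 neuroectoderm, 2 of the 4 neural crest, 1 of the 5 surface ectoderm, 3 of the 4 trophoblast and 2 of the 5 mesenchyme falls were called.

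Extraembryonic endoderm genes differed between the library pairs. Their summed level was 1843, 1393 and 1874 CPM in nontreated EBs and 1129, 961 and 2492 CPM with dTAG-13, so that treated library 3 was the highest of all. Of 19 tested 1 fell, Rhox5 (log2 -1.34), and none rose. Without pair 3 the fit called 17 of these 19 lower, beside 14.3% of all genes called lower there. The part of these genes in other results was not tested.

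Cadherins moved in both directions. Cdh1 (E-cadherin) rose by 0.47 on the log2 scale (adjusted p = 0.0476) and Cdh3 by 0.35, whereas Cdh2 and Cdh11 fell (log2 -1.68 and -3.35). Of 20 unclustered cadherins and protocadherins 4 rose and 8 fell, and the calls of Pcdh7, Cdh11 and Pcdh8 held with each pair left out. That of Pcdh8 was lost without the block (adjusted p = 0.0674). Of 17 tight junction genes 5 rose and none fell, namely Cldn1 (log2 1.17), Cldn3 (0.94), Cldn7 (0.63), Marveld3 (0.80) and Ocln, occludin (0.58), with a list median of 0.39. None of the 5 calls held with pair 2 left out. Cldn3 was at 29.5, 18.3 and 20.4 CPM in nontreated EBs and 38.5, 40.4 and 49.6 CPM with dTAG-13, and its groups did not overlap.

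In the matrix, Fn1 (fibronectin) went from 1078, 1263 and 396 CPM to 519.6, 429.8 and 306 CPM (log2 -0.99, adjusted p = 0.0320), with overlapping groups and a call lost without pair 1 or 2. Of 34 collagens 3 rose and 4 fell: Col5a2 rose (log2 1.79) and Col11a1 fell (-2.94), both with calls that held with each pair left out. Of 39 matrix proteases and inhibitors 4 rose and 5 fell, and Adamts9 (log2 -1.82) and Adam19 (-1.04) were the 2 calls that held with each pair left out. Of 21 integrins Itga1 alone was called (log2 -1.02). Called in either direction were 20.6% of collagens, 23.1% of matrix proteases and inhibitors and 4.76% of integrins, against 12% of all tested genes.

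Of 18 ephrins and Eph receptors 6 fell and none rose, and Epha2, whose call held with each pair left out, went from 280.5, 232 and 186 CPM to 137, 155 and 123 CPM (log2 -0.73, SE 0.10, adjusted p = 0.0115). Of 27 semaphorins, plexins and neuropilins 6 fell and none rose, with Plxna2 at -2.77, although the list's median log2 change was 0.03, and none of the 6 calls held with pair 2 left out. Of 20 tested Slits, Robos, netrins and their receptors 6 fell and 4 rose. Slit2 fell by 3.02 and Slit1 by 2.51, and the netrin receptor Neo1 rose by 0.47. The call of Slit2 held with each pair left out.

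Solute carriers were a large group outside the lineage markers. Of 194 tested outside the amino acid group 28 rose and 13 fell, with a median of 0.08. That is 21.1% called in either direction, against 12% of all tested genes. Without pairs 1, 2 and 3 the numbers called higher were 13, 7 and 46, and 7 of the 28 held with each pair left out, among them Slc2a5, Slc39a8 and Slc39a4. Slc2a5, the fructose transporter, went from 1.71, 1.33 and 1.51 CPM to 5.51, 5.16 and 6.65 CPM (log2 1.93, SE 0.17, adjusted p = 0.00411). The zinc and manganese carriers Slc39a8 (0.92), Slc39a14 (0.65) and Slc39a4 (0.82) rose, and Slc39a10 fell (-0.35). Slc40a1, ferroportin, the iron exporter, fell by 0.86 on the log2 scale (adjusted p = 0.00383), and its call held too.

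Of 51 sodium, calcium, chloride and TRP channels 8 rose and 5 fell. Trpv2 (1.34) and the lysosomal chloride exchanger Clcn7 (0.47) were among those that rose, and Scn9a (-1.90) and Trpv4 (-1.30) among those that fell. Of 51 potassium channels 5 rose and 2 fell, shares near the 6.87% and 5.17% of all tested genes, with Kcnh3 at 1.69 and Kcnc1 at -3.68. Of 33 ABC transporters 5 rose, including Abcg1, a sterol exporter (log2 1.01), and Abcc4 (0.98), and Abcc2 fell (-1.17). Of 47 neurotransmitter receptors 1 rose and 5 fell. Htr3a, a serotonin-gated channel, was the receptor that rose (log2 2.09). Called in either direction were 25.5% of the sodium, calcium, chloride and TRP channels, 18.2% of ABC transporters and 12.8% of neurotransmitter receptors. Over all tested genes the share was 12%. Of the channels, transporters and receptors named here, Kcnh3, Kcnc1, Abcg1 and Abcc4 held their calls with each pair left out.

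The cell cycle list held 3 rises and 8 falls among 36 genes. That is 30.6% called in either direction, against 12% of all tested genes. Without pairs 1, 2 and 3 the numbers called lower were 2, 1 and 16. The D cyclins, which drive entry to S phase, fell: Ccnd2 went from 22.4, 37.6 and 24.2 CPM to 6.64, 9.15 and 5.84 CPM (log2 -1.94, SE 0.11, adjusted p = 0.00141), and Ccnd1 and Ccnd3 had log2 changes of -0.53 and -0.49. The inhibitors Cdkn1b (p27, log2 0.54) and Cdkn1c (p57, 0.41) rose, as did Cdk6 (0.30). Of these the call of Ccnd2 alone held with each pair left out.

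Of 28 interferon and MHC class I genes 6 fell and 1, H2-D1, rose (log2 0.39). Oas1a, an antiviral RNA sensor, fell by 1.98 on the log2 scale, Isg15, a ubiquitin-like modifier, by 1.33 and Psmb8, an immunoproteasome subunit, by 0.82. Psmb8 went from 39.7, 35.1 and 35.5 CPM to 20.2, 22.1 and 19.9 CPM (SE 0.09, adjusted p = 0.00654), and of the 7 its call alone held with each pair left out. Of 44 imprinted genes 9 fell and 4 rose. Peg12 (-2.04), H19 (-1.83), Zim1 (-1.71), Asb4 (-1.24) and Plagl1 (-1.05) fell, and Grb10 (1.14) and Slc22a18 (1.03) rose, and 2 of the 9 and 0 of the 4 held with each pair left out. Of 15 retinoid genes 3 rose and 2 fell, with the binding protein Crabp1 (-1.19) lower and Crabp2 (1.04) higher, and neither of these calls held with each pair left out. Of 25 lipid transport genes 4 rose and 4 fell. Lpl, lipoprotein lipase, rose (log2 1.25, adjusted p = 0.00276) and Cd36, named above, fell. Called in either direction were 25% of the interferon and MHC class I genes and 29.5% of the imprinted genes. For the retinoid and lipid transport genes the shares were 33.3% and 32%, and over all tested genes 12%.

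Of 362 tested zinc finger genes of the Zfp series 11 rose and 9 fell, with a median log2 change of 0.02. That is 5.52% called in either direction, below the 12% of all tested genes. Of 82 ribosomal protein genes none passed, with a median of -0.04. No member passed among 19 YAP and TEAD targets or 17 complement, coagulation and chemokine genes. Of 7 tested protein-coding genes of the mitochondrial genome none passed, although the median was 0.60, and all 7 were called higher without pair 3. In that fit 15% of all genes were called higher. Of all 11 tested mitochondrial genes 2 rose, which the rule did not name: mt-Rnr1 and mt-Rnr2, the ribosomal RNA genes (log2 0.95, adjusted p = 0.0266, and 0.83, adjusted p = 0.0271), and neither passed without the block (adjusted p = 0.175 and 0.458). No two-cell-like gene was tested, since all fell under the filter on low counts.

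dTAG-13 itself was examined in wild-type mESCs, which carry no tag. At 500 nM for 72 h no gene passed among 13784 tested (0%), with 229 at an unadjusted p below 0.05 in edgeR and 79 in DESeq2, where none passed either. Nontreated library 1 and treated library 3 stood apart in ribosomal protein counts, with 6.19% and 6.34% against 5.11% to 5.16% in the others. Such a spread within groups limits what the test could detect, so the absence of calls does not show the absence of an effect. The cells, the medium and the time differ from those of the EBs, so this does not measure the compound's effect in EBs. The difference between the treatment effects in EBs and in wild-type mESCs was tested in 1 model over 12 libraries. It passed for 829 of 15855 genes (5.23%), 436 with a higher (2.75%) and 393 with a lower (2.48%) effect in EBs. Of the 1834 genes called in EBs 752 also passed for the difference, all in the direction of the EB change. The 1834 were chosen by the EB change, which is part of the difference, and no gene passed on the wild-type side. The shared direction thus largely follows from the choice and adds no support. Without EB pairs 1, 2 and 3 the difference passed for 587, 406 and 1141 genes.

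Among the genes described above, the difference passed for Cdx2 (log2 -5.52, adjusted p = 3.04e-05), Evx1 (-5.19, 2.36e-05) and T (-4.99, 0.00142). It passed as well for Eomes (-2.13, 1.72e-05), Axin2 (-1.51, 5.91e-05), Sycp3 (2.30, 3.04e-05), Lrmp (2.84, 1.72e-05) and Ddit3 (1.54, 0.00752). It did not pass for the glycolytic genes Ldha (-0.42, 0.107) and Pfkp (-0.58, 0.0649). Of the 29 genes with the largest changes by rule 15 passed, and the other 14 had at most 14 counts over the 6 wild-type libraries.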

How the data were processed

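Poly(A) RNA was sequenced in 15 libraries of 5 groups, of which 6 EB libraries are the subject. The authors deposited raw counts per gene, as 1 table of whole-number counts per library. Tools named in the submitters' processing notes are STAR (no version), DESeq2 1.30.0 and bcl2fastq 2.20.0.422, with build GRCm38.p6. Counting settings, annotation release and counted strand: not given in the sources used here. Of 55471 gene IDs 55230 matched GENCODE M21, which gave symbols and coordinates, and 92 spike-ins, at 0 in all EB libraries, were left out.

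Counts were tested with edgeR 4.0.16 (R 4.3.3): TMM factors, filterByExpr, a quasi-likelihood F test with terms for replicate number and treatment, and adjusted p below 0.05. The block follows from the replicate numbers that the 2 EB groups share. As a check, same-numbered EB libraries deviated together from their group means (correlations 0.226, 0.268 and 0.373 across genes). Of the differently numbered libraries, 1 and 2 also correlated (0.173 and 0.105), and those with library 3 were at -0.212 to -0.300, so that the check parts pair 3 from the others more than pairs 1 and 2 from each other. The numbers come from the labels. The wild-type comparison had no block, and the difference had it within EBs. A fit without a pair filtered genes anew, so its counts can hold list members not tested with all pairs. The fits were tested on simulated data. CPM values use TMM factors over all 15 libraries. Intervals of count ratios are 95% and cover counting error only.

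The members, gene lists and tests were chosen with earlier results of these data known. The rule named, among called genes with a mean of at least 1 CPM, the same direction in 3 pairs and a symbol that is no numbered model, the 12 highest and 12 lowest changes, the same outside lineage lists, for each list the 6 called members with the lowest p (or, in lists with no call, the 2 of highest mean CPM), and Nsd1, Nsd2, Nsd3, Setd2, Fkbp1a and Crbn. It named 362 genes, of which a selection is described. Other genes are said to be chosen after their values were seen, or stand as members of a counted list. Of the named genes 41 overlap exons of another gene of the opposite strand, and 4 overlap on the same strand, so that their counts are uncertain. Alternatives were fits without the block, without each pair or library, with DESeq2 1.42.0, limma-voom (limma 3.58.1), other scaling, no filter and a gene-length offset. Promoter sequences are from RefSeq. Some single-gene results are not reported here.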

Additional observations from a re-analysis of the deposited data

Results flagged for a closer look

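The difference between the effects of dTAG-13 in EBs and in wild-type mESCs passed the test for 829 genes. This is a difference between groups under the same contrast, tested with an interaction term in edgeR, and cells, medium and duration differ between the groups as well. Among the genes with the largest changes in EBs, the log2 difference (EBs minus wild-type mESCs) was -5.52 for Cdx2, -5.19 for Evx1, -5.15 for Evx1os, -4.99 for T, -4.97 for Rspo3, -4.77 for Isl1 and -3.94 for Slc44a5. It was 2.12 for Slc25a45, 2.40 for Pla2r1, 2.40 for Ccdc73, 2.41 for Hormad2, 2.81 for Zfp783, 2.84 for Lrmp, 2.96 for Gpnmb and 3.48 for Tsga10ip. Each of these 15 genes passed at an adjusted p below 0.05. They were chosen by their change in EBs, which is part of the difference, so this is no independent result.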

How the results depend on the processing

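For EBs the number of called genes was 1834. It stayed within 1.5 times that with DESeq2 (1719), limma-voom (1873), RLE factors (1854), library totals (1907), no count filter (1983) and a gene-length offset (1879). Library totals moved the share of calls that rose from 57.0% to 61.8%. Without the replicate block the count was 1030. With a pair left out it ran from 337 to 4535, highest without pair 3. With single libraries left out and no block it ran from 182 to 1293: 301, 182 and 1293 without nontreated library 1, 2 and 3, and 184, 395 and 1148 without treated library 1, 2 and 3. Why the count is higher without library 3 was not tested.

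Of the 344 called genes named by rule, 96 lost the call without the block, 24 with DESeq2 and 7 with the length offset. Cxcl12, not called with all pairs, was called higher without pair 3 (log2 0.40), and was at -0.35 and -0.22 without pairs 2 and 1. In wild-type mESCs the count was 0 under every alternative run. The difference, 829 genes, gave 992 with DESeq2, 456 without the replicate block, 475 with the replicate block in both cell types, 406 to 1141 with an EB pair left out and 1363 with no count filter, where more genes were tested. Depth limits genes below about 1 CPM, such as Sycp1 or Cdx1 in treated EBs. Other lines were not analysed here.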

Other observations

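Some groups were noticed while looking at the values, and their lists were written afterwards, so their counts are descriptions. Of 50 lysosomal genes 13 rose and 1 fell, beside 6.87% and 5.17% of all genes, with 6, 3 and 25 higher without pairs 1, 2 and 3. Without pair 3, 15% of all genes were called higher and 14.3% lower. Of 31 synaptic vesicle and exocytosis genes 9 rose and 2 fell (5, 3 and 13 higher without each pair). Of 25 genes of meiotic cohesin, axis and recombination 11 rose and none fell (5, 2 and 11). Of 20 apelin and vascular ligand and receptor genes 2 rose and 6 fell (3, 3 and 14 lower). Of 23 further interferon-stimulated genes none rose and 4 fell (1, 1 and 11 lower).

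By chromosome, 62 of 554 tested genes on the X chromosome fell (11.2%), against 5.17% of all tested genes, and 39 rose (7.04%). The next highest share of falls among chromosomes with more than 100 tested genes was 6.60%, on chromosome 6.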
